A study of Mus musculus with 9 samples.

Results

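The genes described here code for the extracellular matrix of C2C12 mouse myoblasts and for the receptors and enzymes that handle it. They were taken by symbol: collagens, laminins, integrins, Adamts proteases, lysyl oxidases, and Fn1, Sparc, Postn, Dcn, Bgn, Lum, Fbn2, Eln, Tnc, Thbs1 and Thbs2, each from probe sets annotated with 1 symbol. The choice gave 113 genes on 141 probe sets, of 19938 named genes on the array, and 67 of the 113 were among the 9864 genes bright enough to be tested. Symbol matching also took in Itgb1bp1, Itgb1bp2 and Itgb3bp, which bind integrins, and Loxhd1, which is no lysyl oxidase. No probe set with Fbn1 as its single symbol was found, so Fbn1 was not analysed here.

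C2C12 cells, an established myoblast line, received siRNA directed at Cugbp1 (now named Celf1), at Mbnl1 or a control siRNA, and total RNA was hybridised to Affymetrix whole-transcript arrays. Cultures of each siRNA were harvested 0, 2.5 and 5 h into treatment with actinomycin D at 5 ug/ml, an inhibitor of transcription, so that the question asked of each mRNA was how fast it was lost and whether either protein altered that loss. With 1 array for every siRNA at every time (9 in all), there are 3 arrays per siRNA and 3 per time and no replicates. Whether separate cultures were used is not stated by the labels, and the spread behind each standard error is the siRNA-by-time variation, which may be technical.

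The extracellular matrix is a mesh of secreted proteins. Fibrillar collagens form its tensile fibres, which lysyl oxidases cross-link. Laminins and type IV collagen build the basement membrane around muscle fibres, and fibronectin, tenascin and thrombospondins link fibres, growth factors and cells. Integrins are receptors made of an alpha and a beta chain that tie this mesh to the cytoskeleton, and Adamts enzymes are secreted metalloproteases that trim procollagens and cleave proteoglycans. CUGBP1 and MBNL1 are RNA-binding proteins that regulate splicing, and each has also been linked to mRNA turnover in muscle cells.

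The sequences of 250 bases before the start of 4 members are given because the results below turn on them: Adamts1 had the largest fall, Itgb8 the largest difference between siRNAs, and Col6a1 and Col6a2 are neighbouring genes that moved together. They are RefSeq sequences on GRCm38.p6, written 5′ to 3′ on the gene's strand, and all 4 genes lie on the minus strand: Adamts1 at chr16:85803114-85803363, Itgb8 at chr12:119238277-119238526, Col6a1 at chr10:76726045-76726294 and Col6a2 at chr10:76623405-76623654. Capitals mark matches on either strand to 4 motifs: the TATA box, searched as TATAAA; the CCAAT box, searched as those letters; the GC box, searched as GGGCGG and reading CCGCCC on the other strand; and the AP-1 site, searched as TGANTCA.
Adamts1: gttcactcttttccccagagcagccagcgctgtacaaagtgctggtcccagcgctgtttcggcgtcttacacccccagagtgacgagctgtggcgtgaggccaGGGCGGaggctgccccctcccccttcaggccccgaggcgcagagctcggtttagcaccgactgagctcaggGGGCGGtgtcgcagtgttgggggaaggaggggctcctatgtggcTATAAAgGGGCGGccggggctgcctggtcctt
Itgb8: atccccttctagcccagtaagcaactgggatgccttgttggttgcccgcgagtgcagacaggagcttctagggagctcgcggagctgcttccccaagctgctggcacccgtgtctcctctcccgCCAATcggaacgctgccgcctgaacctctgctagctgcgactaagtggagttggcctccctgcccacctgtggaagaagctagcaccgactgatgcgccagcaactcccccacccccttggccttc
Col6a1: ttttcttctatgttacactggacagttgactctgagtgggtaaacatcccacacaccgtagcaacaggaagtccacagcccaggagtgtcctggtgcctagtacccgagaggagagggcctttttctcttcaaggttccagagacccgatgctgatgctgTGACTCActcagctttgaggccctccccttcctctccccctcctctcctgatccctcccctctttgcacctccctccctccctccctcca
Col6a2: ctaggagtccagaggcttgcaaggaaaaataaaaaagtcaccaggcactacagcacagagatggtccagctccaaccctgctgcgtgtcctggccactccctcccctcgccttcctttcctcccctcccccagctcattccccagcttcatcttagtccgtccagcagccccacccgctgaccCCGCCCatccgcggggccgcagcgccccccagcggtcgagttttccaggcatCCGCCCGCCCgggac
Adamts1 had TATAAA with its first base 32 bases before the start (position -32) and GGGCGG at -147, -76 and -25. Itgb8 had CCAAT at -126. Col6a1 had TGACTCA at -90, whereas Col6a2 had CCGCCC at -67, -15 and -11, with the last 2 matches overlapping, and these neighbours shared none of the 4 motifs in these windows. The table holds a second start for Col6a2, whose window is not printed.

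Of the 113 genes, 74 had a promoter in the RefSeq table. The GC box letters were in 37 of these 74 windows and in 32.9% of 27025 windows of all genes. The CCAAT letters were in 23.0% of the member windows and 34.5% of all, the TATA letters in 10.8% and 13.0%, and the AP-1 letters in 1.35% and 6.87%. Col6a1 held the 1 AP-1 match among the members. A match is a run of letters and was not tested as a binding site.

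Myoblast markers were present and both siRNA targets were lowered. All 8 myoblast markers were bright enough to be tested, among them Des, Myod1, Myf5, Pax7 and Chrna1, and their summed intensity lay between 22240 and 23730 on the 9 arrays. Among markers of adipocytes 0 of 6 and of endothelium 0 of 5 passed the filter, among fibroblast markers 1 of 7 (Pdgfra), and among osteoblast and chondrocyte markers 1 of 6 (Sox9). Of macrophage and leukocyte markers 1 of 7 (Cd68) passed. Epithelial markers passed in 4 of 6 cases, Klk6 only through its Mbnl1 siRNA arrays. Their sum was 2325 to 2432 under control siRNA, where Krt19 read 1479 to 1532. Celf1 mRNA under Cugbp1 siRNA was at 30.9%, 22.1% and 21.6% of the control array at 0, 2.5 and 5 h, and Mbnl1 mRNA under Mbnl1 siRNA at 22%, 18.3% and 15.9%. Celf1 was also lower under Mbnl1 siRNA, at 72.4%, 65.4% and 61.5% of control. The median intensity of an array ranged from 104.92 to 113.01.

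By group, 9 of 18 Adamts genes, 9 of 11 fibrillar collagens, 4 of 8 basement membrane collagens, 14 of 25 other collagens, 7 of 10 laminins, 7 of 11 matrix glycoproteins and proteoglycans, 4 of 4 lysyl oxidases, 6 of 13 integrin alpha chains, 6 of 9 integrin beta chains and 1 of 3 integrin-binding proteins were tested. The filter was a mean log2 intensity of at least 7.385, an intensity of 167.1. Eln, Fbn2, Lum and Postn were dimmer than that. Of the 46 genes not tested, 45 varied by less than 2-fold over the 9 arrays. The exception was Lama3, a laminin chain of epithelial basement membranes, at 131.6, 151.2 and 147.2 under Mbnl1 siRNA and between 74.94 and 95.25 on the other 6 arrays.

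During transcription arrest Adamts1 fell most, Itga5, Lamb1, Thbs1, Adamts4 and Col8a1 fell by less, and the other tested members rose or were not called on the deposited scale. At 5 h, 6 of the 67 tested members were lower than at 0 h and 40 were higher, by limma at p under 0.05 after Benjamini-Hochberg adjustment across all tested genes. Among all 9864 genes 32.8% were lower and 35.6% higher. The median log2 change of the members was 0.14 and that of all genes was 0.035. Adamts1 was the 1 member whose log2 change exceeded 1. In each siRNA arm 1 of 67 members (1.49%) fell at least 2-fold by 5 h, against 6.16%, 4.57% and 6.31% of all genes under control, Cugbp1 and Mbnl1 siRNA. At 2.5 h, 5 members were lower and 22 higher (24.2% and 23.1% of all genes).

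These values are relative to the other mRNAs on an array, because RMA sets all arrays to 1 distribution. When arrays were set to equal medians of ribosomal protein mRNAs instead, the median of all genes moved by -0.24 at 5 h, -0.10 at 2.5 h and -0.14 from 2.5 to 5 h. On that scale 1 member (1.49%) was higher and 20 (29.9%) were lower at 5 h, where 2.61% and 60.1% of all genes were. At 2.5 h 0 members were higher and 7 (10.4%) lower, where 2.66% and 32% of all genes were. The share of higher calls at 5 h went from 87% to 4.76% among members and from 52.1% to 4.15% among all genes. The rises below are therefore rises relative to other mRNAs of the array. That of Adamts10 was called on both scales, but the second scale is itself relative to ribosomal protein mRNAs. Of the 40 rises, 19 came from genes within 1 log2 unit of the filter (23 of all 67 tested members lie there).

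Adamts1, a protease that cleaves aggrecan and versican, fell furthest of the tested members. Its intensity at 0, 2.5 and 5 h was 677, 235 and 202 under control siRNA, 472, 174 and 146.5 under Cugbp1 siRNA, and 747, 299.5 and 205 under Mbnl1 siRNA. All 3 arrays at 0 h lay above all 6 later arrays. The log2 change was -1.43 ± 0.06 (SE, 3 arrays per time) at 2.5 h and -1.76 ± 0.06 at 5 h, a 3.40-fold fall (limma adjusted p = 3.28e-07). From 2.5 to 5 h it fell by 0.34. On the ribosomal protein scale the 5 h change was -2.005.

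Adamts4, another proteoglycan-cleaving protease, was lower at 5 h by a smaller step, -0.29 ± 0.08 (limma adjusted p = 0.0132). Its intensities were 286, 199.6 and 229.7 under control siRNA, 310.3, 248.9 and 236 under Cugbp1 siRNA, and 387, 369 and 351 under Mbnl1 siRNA. In each arm the 0 h array was the highest, but the arrays of different times overlapped across siRNAs. Leaving out any of 3 arrays, 1 at a time, ended this call. Adamts5, the neighbouring gene of Adamts1 and a proteoglycan-cleaving protease as well, was under the filter and not tested; it read 231, 161.5 and 155 under control siRNA, 191, 162 and 130.3 under Cugbp1 siRNA, and 188, 128 and 123 under Mbnl1 siRNA.

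The other 7 tested Adamts genes rose at 5 h on the deposited scale, where 35.6% of all genes did. Of the 7, Adamts10 alone rose on the ribosomal protein scale as well. Adamts3 had 1 of its 16 probe sets above the filter. At 0 h it read 148.5, 151.2 and 168.1 under control, Cugbp1 and Mbnl1 siRNA, against the filter intensity of 167.1. With a mean log2 of 7.41 it passed only through later arrays, and its place among the rises depends on that. Adamts10, a protease associated with fibrillin microfibrils, went from 227.5 to 309 under control siRNA, from 212 to 314 under Cugbp1 siRNA and from 215 to 285 under Mbnl1 siRNA. The 3 arrays at 5 h lay above all others. The change was 0.47 ± 0.04, the largest rise of any member (limma adjusted p = 4.55e-05), and 0.23 on the ribosomal protein scale (limma adjusted p = 0.00514).

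Among integrins, Itga5, the alpha chain of the classical fibronectin receptor, fell in every arm. Intensities at 0, 2.5 and 5 h were 4170, 3441 and 2957 under control siRNA, 3727, 2921 and 2425 under Cugbp1 siRNA and 4477, 3805 and 3200 under Mbnl1 siRNA. The 3 arrays at 5 h were below all 3 at 0 h. The change was -0.29 at 2.5 h and -0.53 ± 0.04 at 5 h (limma adjusted p = 1.23e-05), and it continued from 2.5 to 5 h by -0.25.

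Itgb1, the beta chain that pairs with Itga5 and with most alpha chains in muscle cells, did not fall on the deposited scale. It read 4519, 4667 and 4803 under control siRNA, 4187, 4519 and 4689 under Cugbp1 siRNA, and 4306, 4488 and 4606 under Mbnl1 siRNA, a rise of 0.12 ± 0.03 at 5 h that became -0.12 on the ribosomal protein scale. Of the 12 tested integrin chains, 7 rose, 1 fell and 4 were not called at 5 h on the deposited scale. Among all genes 35.6% rose and 32.8% fell. The 4 were Itga7 (0.06), Itgb3 (0.07), Itgb5 (0.09) and Itgb8 (-0.02). None of the 7 that rose was a called rise on the ribosomal protein scale. Itga10, 1 of the 7, was tested only through its Mbnl1 siRNA arrays, since its other arrays read 131.8 to 166.3, under the filter intensity of 167.1.

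In the basement membrane group, Lamb1, the beta chain of the main embryonic laminins, was lower with time in all arms. It read 2473, 1974 and 1775 under control siRNA, 2694, 2338 and 2109 under Cugbp1 siRNA, and 2212, 1846 and 1763 under Mbnl1 siRNA. The change at 5 h was -0.39 ± 0.04 (limma adjusted p = 0.000101), with an overlap between times, since the Cugbp1 siRNA array at 2.5 h was above the Mbnl1 siRNA array at 0 h. Its partner chain Lamc1 (-0.03) and Lama2 (-0.02), the alpha chain of the muscle basement membrane, were not called. On the ribosomal protein scale 5 of the 7 tested laminins (71.4%) were lower, where 60.1% of all genes were. On the deposited scale, 3 of the 4 tested basement membrane collagens rose, Col4a1 by 0.20, Col4a5 by 0.22 and Col18a1 by 0.19. Among all genes 35.6% rose. Col4a5 read 157.1, 149 and 151.4 at 0 h, all under the filter intensity of 167.1. It was tested only through later arrays, and its place among the rises depends on that. Col4a1 stood at -0.04 on the ribosomal protein scale.

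None of the 9 tested fibrillar collagens fell at 5 h on the deposited scale, at an adjusted or an unadjusted p under 0.05 in limma. On the ribosomal protein scale 2 (22.2%) were lower, Col1a2 (-0.22) and Col3a1 (-0.31), where 60.1% of all genes were. Col1a2, a chain of type I collagen, read 2622, 2554 and 2681 under control siRNA, 2472, 2521 and 2518 under Cugbp1 siRNA, and 2449, 2519 and 2440 under Mbnl1 siRNA. Its change at 5 h was 0.02 and that of Col3a1, the type III chain, was -0.07, and neither was called. The other 7 tested fibrillar collagens rose on the deposited scale by 0.13 to 0.23, and on the ribosomal protein scale Col1a1 stood at -0.09, Col5a1 at -0.10 and Col5a2 at -0.09. Among the other collagens, 9 of 14 rose on the deposited scale, where 35.6% of all genes did. Col8a1 alone fell, by 0.12, a call that leaving out any of 5 arrays ended.

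Fn1, fibronectin, read 13380, 13460 and 13380 under control siRNA, 11920, 12210 and 11830 under Cugbp1 siRNA, and 14470, 14570 and 14350 under Mbnl1 siRNA. The arrays grouped by siRNA and not by time, and the 5 h change was -0.01 on the deposited scale (limma adjusted p = 0.84) and -0.25 on the ribosomal protein scale (limma adjusted p = 0.00149). Thbs1, thrombospondin 1, which activates TGF-beta, was the 1 of the 7 tested glycoproteins and proteoglycans that fell on the deposited scale, from 7782 to 6482 and 5869 under control siRNA, from 7258 to 5899 and 5728 under Cugbp1 siRNA, and from 12940 to 11640 and 10640 under Mbnl1 siRNA. It fell within each arm, while the Mbnl1 siRNA arrays lay above all others at every time. Its change was -0.34 ± 0.04 (limma adjusted p = 0.000197). On the ribosomal protein scale 4 of the 7 (57.1%) were lower, close to the 60.1% of all genes: Thbs1 (-0.58), Tnc (-0.33), Thbs2 (-0.32) and Fn1. Sparc, Bgn and Dcn rose on the deposited scale, by 0.12, 0.25 and 0.14, and on the ribosomal protein scale Sparc stood at -0.12 and Dcn at -0.10.

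From 2.5 to 5 h few members moved further: Adamts10 and Bgn were higher and Adamts1, Itga5 and Tnc lower, which is 2 and 3 of 67 against 4.47% and 17% of all genes. On the ribosomal protein scale these counts were 0 and 13 (19.4%), where 0.0608% and 44.3% of all genes were called. Markers moved over the same hours. Of the 8 myoblast markers 3 were lower at 5 h (Myf5, Myod1 and Pax7), 1 was higher and 4 were not called. Their summed intensity, given above for the same arrays, is mostly that of Des and Chrna1 and does not show these falls. Sox9 went from 2796 to 1450 and 1007 under control siRNA and Myf5 from 1230 to 727 and 471, while Des went from 8702 to 8955 and 9370. Their part in the member changes was not tested. Without the control array at 2.5 h the 2 became 0, without the Cugbp1 siRNA array at 2.5 h it became 1, and without the Cugbp1 siRNA array at 5 h it became 4. The 22 higher members at 2.5 h became 9 without the control or the Cugbp1 siRNA array at 2.5 h, 10 without the Mbnl1 siRNA array at 2.5 h, 12 without the control array at 0 h and 14 without the Mbnl1 siRNA array at 0 h.

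**Figure D1:**
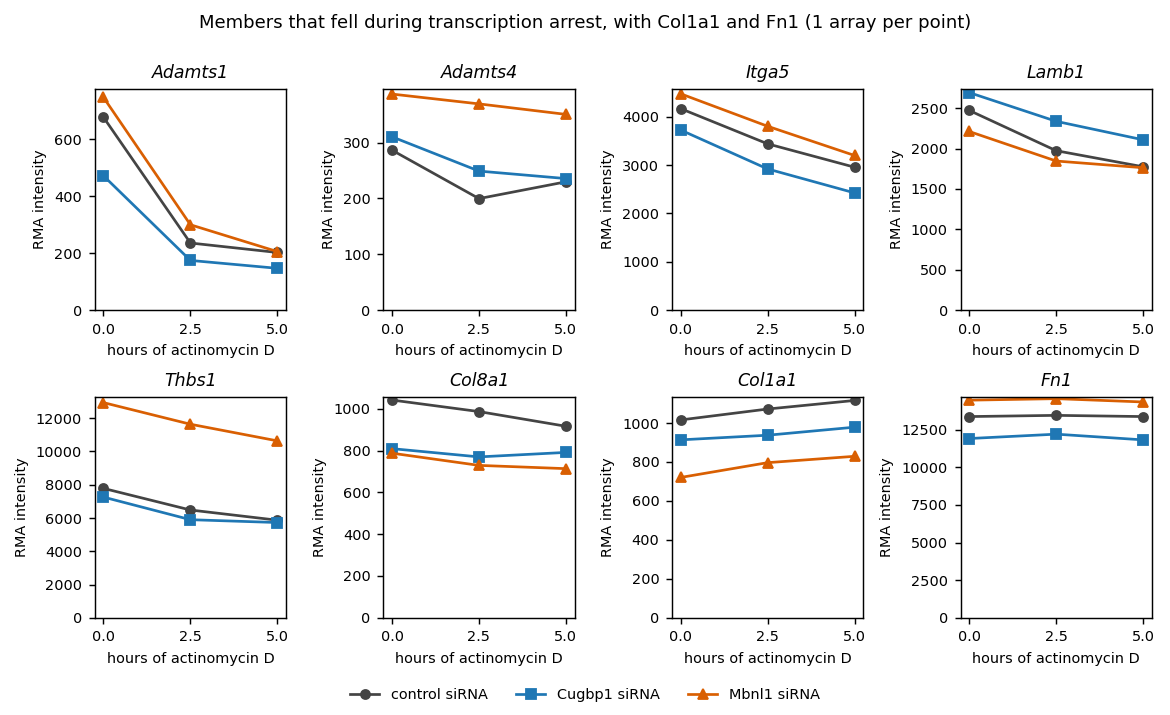
RMA intensity (linear, from 0) of 8 members against hours of actinomycin D, 1 array per point and 1 line per siRNA. Adamts1 falls from between 472 and 747 to between 146.5 and 205, Itga5, Lamb1 and Thbs1 decline by less, and Fn1 and Col1a1 stay near their 0 h level on this scale; with equal ribosomal protein medians the log2 change at 5 h is -0.25 for Fn1 and -0.09 for Col1a1.

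**Figure D2:**
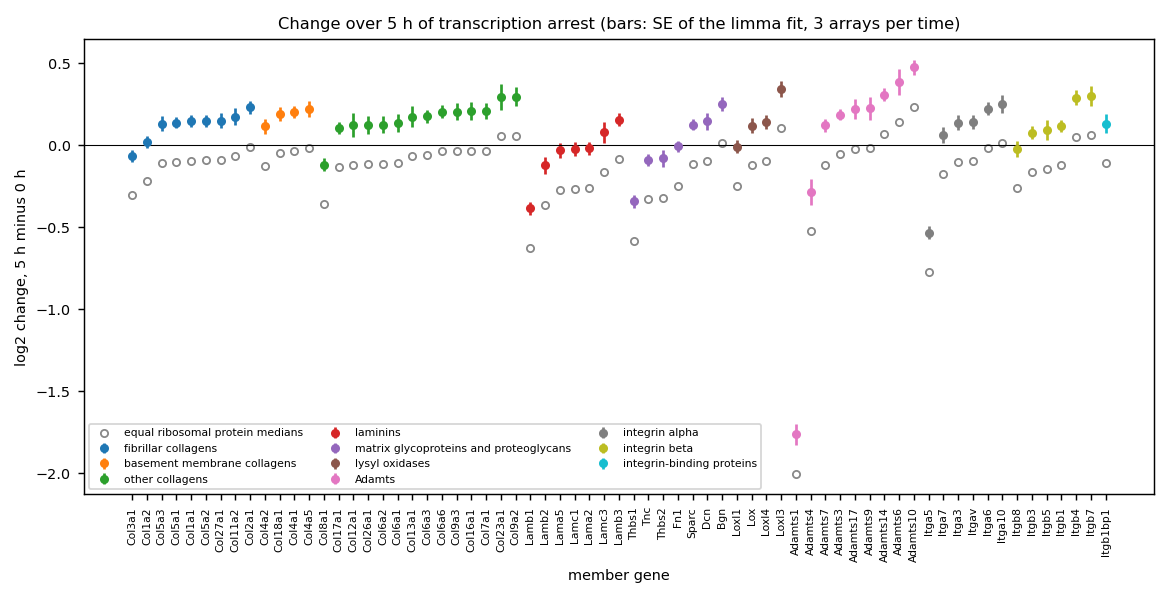
The log2 change from 0 to 5 h of the 67 tested members by group, with filled points and SE bars from the limma fit on the deposited scale and open grey points after setting arrays to equal ribosomal protein medians. On the deposited scale 40 members are called higher and 6 lower, and on the other scale 1 is higher and 20 are lower; Adamts1 stands apart on both.

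Under Mbnl1 siRNA Itgb8, Itgb3, decorin, thrombospondins, Lox and Loxl4 were higher, and Tnc, Adamts7, Itgb5 and the fibre collagens Col1a1 and Col3a1 lower. Averaged over the 3 times, 26 of 67 members were higher and 13 lower than under control siRNA, where 24% of all genes were higher and 31% lower. The median member difference was 0.08, against -0.02 for all genes. With equal ribosomal protein medians the counts were 18 (26.9%) and 11 (16.4%), where 21.1% and 28.2% of all genes were called. The 10 largest rises and 10 largest falls kept their call whichever single array was left out, but the count of 26 fell to 17 without the Mbnl1 siRNA array at 2.5 h. In bulk RNA, fewer cells of a type and less RNA per cell cannot be told apart.

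Of the 6 tested integrin beta chains 4 (66.7%) were higher and 1 (16.7%) lower, where 24% and 31% of all genes were. Itgb8, with the largest difference of any tested member, which with Itgav forms a receptor that activates latent TGF-beta, read 499, 536 and 494 under control siRNA and 1558, 1687 and 1427 under Mbnl1 siRNA, with 666, 714 and 699.8 under Cugbp1 siRNA. The 3 siRNAs did not overlap. The difference from control was 1.61 ± 0.05 under Mbnl1 siRNA, 3.05-fold (SE, 3 arrays per siRNA, limma adjusted p = 7.85e-07).

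Itgb3, the beta chain of the vitronectin receptor, was higher under Mbnl1 siRNA by 0.60 ± 0.04, from 1266, 1219 and 1271 to 1810, 1881 and 2000. Itgb7, a beta chain best known from lymphocytes, was higher by 0.58. Itgb5, another partner of Itgav, was lower by 0.56 on the log2 scale (-0.56 ± 0.06), from 1924, 1975 and 2181 to 1415, 1399 and 1316. Itgb3 and Itgb5 each separated the Mbnl1 siRNA arrays from the control arrays without overlap, in opposite directions.

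Among alpha chains, Itga3, a laminin receptor chain, was higher by 0.56, from between 1859 and 1985 to between 2629 and 2999. Itga10, a collagen receptor chain close to the filter, was higher by 0.65, from between 131.8 and 166.3 to between 204 and 266. Its control siRNA arrays and its Cugbp1 siRNA arrays (134.5 to 145.6) all lay below the filter intensity of 167.1. Itga10 was thus tested only through its Mbnl1 siRNA arrays, and its place among the higher members depends on that. Itgav was lower by 0.27 on the log2 scale (-0.27 ± 0.04), at 3276, 3628 and 3659 against 4080, 4075 and 4546. Itgb1 differed by -0.06, which was not called.

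Of the 7 tested matrix glycoproteins and proteoglycans, 4 (57.1%) were higher and 2 (28.6%) lower under Mbnl1 siRNA, where 24% and 31% of all genes were. Dcn, decorin, a small proteoglycan that coats collagen fibrils and binds TGF-beta, read 2212, 2182 and 2214 against 954, 931 and 1126 under control siRNA. Both sets stood apart by a wide gap. The difference was 1.14 ± 0.05, 2.20-fold (limma adjusted p = 3.95e-06).

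Thbs1 was higher by 0.81 ± 0.04, 1.76-fold, and Thbs2, its close relative, by 0.33. Tnc, tenascin C, an adhesion-modulating glycoprotein, was lower, at 2710, 2894 and 2619 against 4355, 4537 and 4108, a difference of -0.66 ± 0.04 (limma adjusted p = 7.26e-06). The Tnc arrays of Cugbp1 siRNA, at 3295, 3217 and 2984, lay between both sets.

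Of the 9 tested fibrillar collagens 2 (22.2%) were lower and 1 (11.1%) higher under Mbnl1 siRNA, where 31% and 24% of all genes were. Col1a1 and Col3a1, chains of the main fibre collagens, were lower by 0.45 and 0.44 (-0.45 ± 0.04 and -0.44 ± 0.04), and 6 of 9 were not called, with Col1a2 at -0.08. Col2a1 was higher by 0.11 (limma adjusted p = 0.0483), a call that ended with equal ribosomal protein medians. Col1a1 read 721, 797 and 829 against 1016, 1072 and 1116, and Col3a1 read 1235, 1183 and 1144 against 1613, 1608 and 1605. Neither overlapped with control.

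Col18a1, a basement membrane collagen whose C-terminal part is endostatin, was higher by 0.62 ± 0.04, at 1819, 1924 and 1991 against 1157, 1271 and 1307. Col8a1, a short-chain collagen, was lower by 0.40 on the log2 scale (-0.40). All 4 lysyl oxidases were called: Lox by 0.40, Loxl3 by 0.13 and Loxl4 by 0.71 higher, and Loxl1 lower (-0.14). With equal ribosomal protein medians Lox and Loxl4 kept their calls, and Loxl3 and Loxl1 did not. Loxl4 read 424.5, 426 and 442 under Mbnl1 siRNA against 252, 260.4 and 278, and its dimmer second probe set, below the filter, differed by 0.61.

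Among laminins, Lamc1 was lower under Mbnl1 siRNA (-0.33 ± 0.04) and Lama2 higher (0.23 ± 0.04), and 5 of 7 were not called. Among proteases, Adamts4 was higher by 0.64 ± 0.08. Adamts7, a protease of cartilage oligomeric matrix protein, was lower (-0.65 ± 0.04), at 658, 715 and 744 against 1044, 1108 and 1158. Adamts14, which removes the amino-terminal propeptide of procollagens, was lower by 0.22 on the log2 scale (-0.22). Adamts4 and Adamts7 each held their control and Mbnl1 siRNA arrays apart.

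Markers of other cell types moved with this contrast. Of 6 epithelial markers 4 were tested, and 3 of them, Krt8, Klk6 and Cdh1, were higher; the list's summed intensity was 5464 to 6310 under Mbnl1 siRNA, 2325 to 2432 under control siRNA and 2222 to 2365 under Cugbp1 siRNA. Krt8 rose by 2.69, Klk6 by 3.59 and Cdh1 by 1.26 on the log2 scale, while Epcam and Krt18 were below the filter on the mean of all arrays. Klk6 read 73.43 to 88.31 on the other arrays, below the filter intensity of 167.1, and was tested only through its Mbnl1 siRNA arrays (933.7 to 1233). Krt19, the remaining tested marker, was not called (-0.10), at 1324 to 1451 against 1479 to 1532 under control siRNA. Of 7 macrophage and leukocyte markers Cd68 alone was tested; the list's sum was 1038 to 1263 against 636.7 to 783.1 on the other arrays, with Ptprc between 47.39 and 52.6 on all 9. Of 7 fibroblast markers Pdgfra alone was tested and was lower (-0.24). None of the 6 adipocyte markers passed the filter; their sum was 414.1 to 434.2 under Mbnl1 siRNA and 328.1 to 348.1 on the other arrays, with Cd36 at 115.6 to 158.9 against 39.71 to 55.11 and Adipoq between 22.71 and 26.62 on all 9. Of the 8 myoblast markers 2 were lower, Cdh15 and Myod1, both by 0.58 on the log2 scale (-0.58), 2 were higher, Mymk (0.21) among them, and 4 were not called. The part of these markers in the member differences was not tested.

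**Figure D3:**
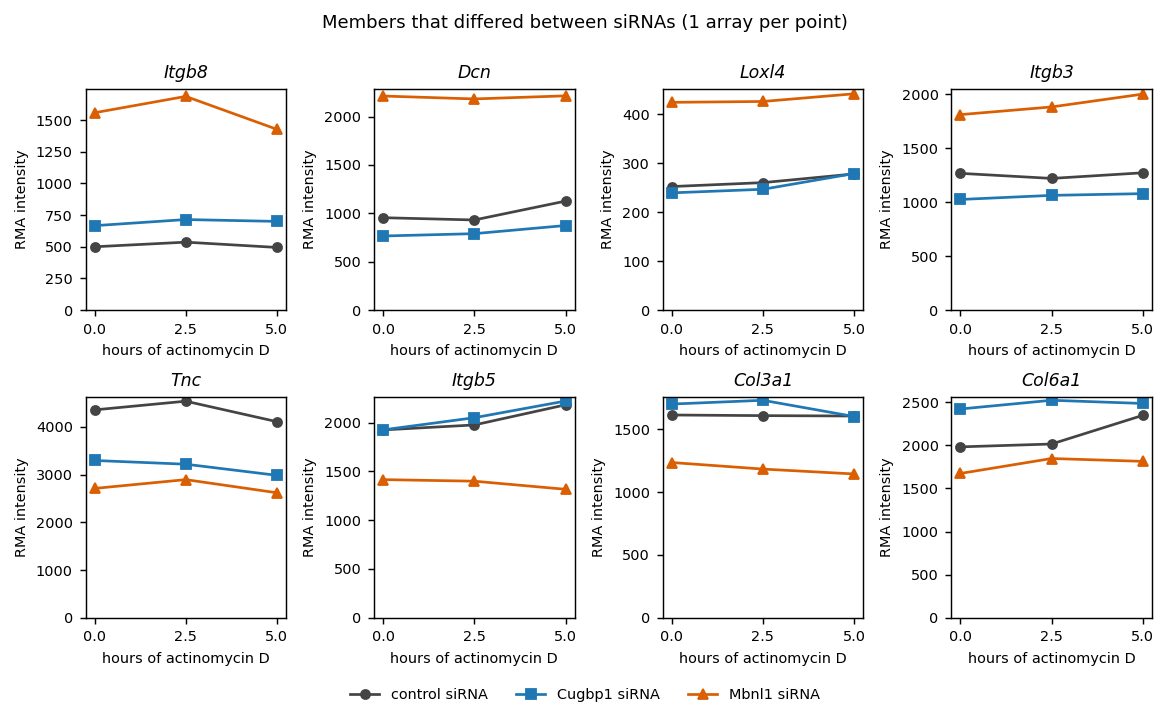
RMA intensity (linear, from 0) of 8 members that differed between siRNAs, against hours of actinomycin D, 1 array per point. Itgb8, Dcn, Loxl4 and Itgb3 are highest under Mbnl1 siRNA at every time, and Tnc, Itgb5, Col3a1 and Col6a1 are lowest there.

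Under Cugbp1 siRNA some laminins and type VI collagen chains were higher, and several Adamts proteases, glycoproteins and lysyl oxidases lower. Over the 3 times 7 of 67 were higher and 14 lower than under control siRNA, where 10.5% of all genes were higher and 8.67% lower. The median member difference was -0.008, against 0.01 for all genes. With equal ribosomal protein medians the counts were 4 (5.97%) and 15 (22.4%), where 4.07% and 11.1% of all genes were called, and the share of higher calls went from 33.3% to 21.1% among members and from 54.9% to 26.7% among all genes. Without the Cugbp1 siRNA array at 2.5 h the 7 became 3, and without the control array at 2.5 h it became 4. Among markers, Cdh15 (0.28), Pdgfra (0.25) and Cd68 (0.24) were higher and Myf5 lower (-0.17); 6 of the 8 myoblast markers and all 4 tested epithelial markers were not called, and the part of these markers in the member differences was not tested.

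The members higher under Cugbp1 siRNA were 3 laminins, the neighbours Col6a1 and Col6a2, and the integrin chains Itgb8 and Itga6. Itgb8 was higher by 0.44 ± 0.05 (limma adjusted p = 0.000958). Lama2 read 817, 859 and 845 under Cugbp1 siRNA against 660.3, 645 and 623 under control siRNA, a difference of 0.39 ± 0.04, and Lamc1 read 2121, 2226 and 2207 against 1865, 1809 and 1727, a difference of 0.28 ± 0.04. Both sets of arrays were apart from control. Lamb1 was higher by 0.21, but leaving out any of 4 arrays ended that call, and Itga6, a laminin receptor chain, was higher by 0.18, a call that 6 such omissions ended. With equal ribosomal protein medians Lamb1, Itga6 and Col6a1 were not called.

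Col6a1 and Col6a2, chains of the type VI collagen that surrounds muscle fibres, read 2420, 2521 and 2484 and 1228, 1233 and 1245 under Cugbp1 siRNA. Under control siRNA they read 1981, 2014 and 2346 and 988, 921 and 1090. All Cugbp1 siRNA arrays were above all control arrays for both genes. The differences were 0.23 ± 0.05 and 0.31 ± 0.05; leaving out any of 4 arrays ended the call for Col6a1, and leaving out 1, Cugbp1 siRNA at 2.5 h, that for Col6a2, at 0.28. Under Mbnl1 siRNA the same 2 genes were lower, by 0.25 and 0.21 on the log2 scale (-0.25 and -0.21); 1 of the 9 omissions of an array ended the call for Col6a2 and 0 that for Col6a1. Col6a3, the third chain, was not called in either contrast.

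Of the 14 members lower under Cugbp1 siRNA, 4 were Adamts genes, 3 glycoproteins, 2 lysyl oxidases, 2 integrin chains, 2 collagens and 1 a laminin. Adamts6 differed by -0.57 ± 0.08, at 289, 343 and 421.6 against 423.2, 589 and 545, with the nearest arrays of both sets almost level. Adamts1 differed by -0.47 ± 0.06 (limma adjusted p = 0.00231) and stood at 69.6%, 74% and 72.5% of control at 0, 2.5 and 5 h. The Cugbp1 siRNA array was the lower at each time.

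Tnc was lower under Cugbp1 siRNA by 0.45 on the log2 scale (-0.45 ± 0.04), Lamb3, a chain of epithelial laminin, by 0.40 (-0.40 ± 0.04), Dcn and Lox by 0.31 each (-0.31 ± 0.05), and Itgb3 by 0.25 (-0.25 ± 0.04). Lox read 3211, 3705 and 3770 against 4295, 4441 and 4514. The Lox arrays did not overlap.

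The contrasts of both knockdowns use the same control arrays, so their values are set side by side and the difference was tested directly. Under Mbnl1 siRNA 26 members were higher and 14 lower than under Cugbp1 siRNA, where 23% and 33.4% of all genes were. With equal ribosomal protein medians the counts were 28 (41.8%) and 11 (16.4%), where 26.8% and 23.1% of all genes were called. The share of higher calls went from 65% to 71.8% among members and from 40.8% to 53.7% among all genes. Dcn differed most, by 1.45 ± 0.05, with -0.31 under Cugbp1 siRNA and 1.14 under Mbnl1 siRNA. Itgb8 differed by 1.16, Thbs1 by 0.90, Itgb3 by 0.85 and Lox by 0.72. On the other side, Lamc1 differed by -0.605, Itgb5 by -0.58, Col6a2 by -0.52 and Col3a1 by -0.50.

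**Figure D4:**
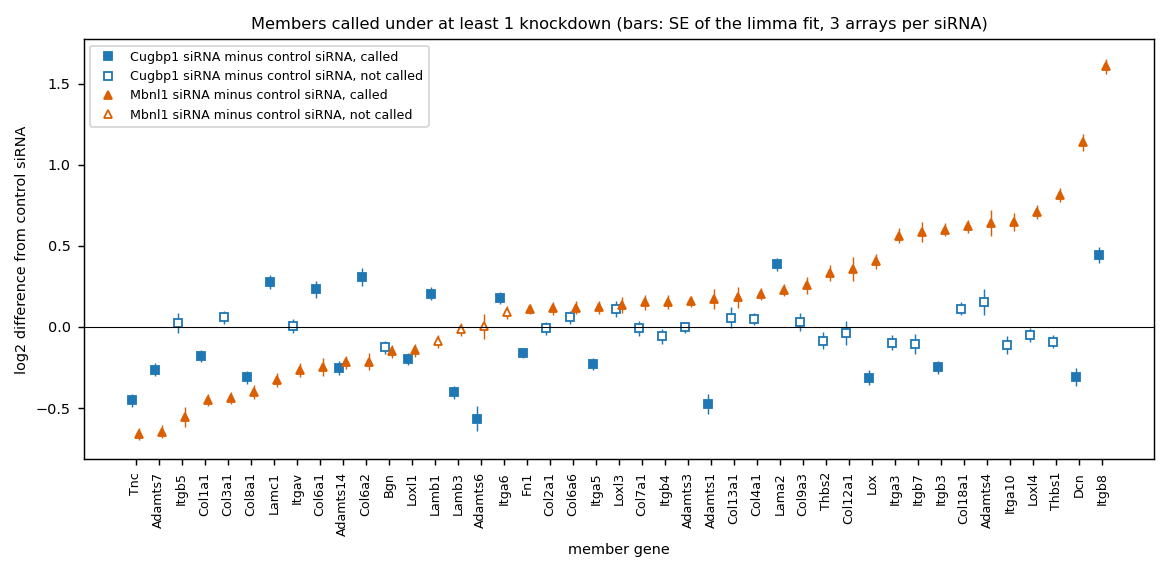
Log2 difference from control siRNA under Cugbp1 siRNA (squares) and Mbnl1 siRNA (triangles) for the 43 members called under at least 1 of them, ordered by the Mbnl1 siRNA value; bars are SE of the limma fit, 3 arrays per siRNA, and open symbols were not called. Both differences use the same control arrays. Itgb8 (1.61) and Dcn (1.14) stand highest under Mbnl1 siRNA and Tnc (-0.66) lowest; Lamb1, Itga6 and Col6a1 lose their Cugbp1 siRNA call with equal ribosomal protein medians.

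No member passed the test for a difference in hourly slope under either knockdown. For Cugbp1 siRNA 0 members were called in either direction, with 0% of all genes higher and 0% lower. For Mbnl1 siRNA 0 members were called, with 0% of all genes higher and 0.0203% lower. In limma, 7 of 67 members (10.4%) had an unadjusted p under 0.05 for Cugbp1 siRNA and 11.4% of all genes did; for Mbnl1 siRNA these were 4 members (5.97%) and 13.8% of all genes. The lowest adjusted p of a member was 0.322 and 0.206. With equal ribosomal protein medians Col23a1, Adamts9 and Itgb5 were called lower for Mbnl1 siRNA, 4.48% of the members, where 6.35% of all genes were called lower.

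The slopes of the members that fell show how wide the limits were. For Adamts1 the share left at 5 h was 29.8% under control siRNA, 31.1% under Cugbp1 siRNA and 27.5% under Mbnl1 siRNA. Its slope differed from control by 0.01 log2 per h (95% interval -0.06 to 0.08) under Cugbp1 siRNA and by -0.02 (-0.10 to 0.05) under Mbnl1 siRNA. For Itga5, with 70.9%, 65.1% and 71.5% left, the differences were -0.02 (-0.06 to 0.01) and 0.0023 (-0.04 to 0.04). With 1 array per siRNA and time, these intervals are not limits of detection, since calls needed an adjusted p under 0.05 across all genes. Differences outside them could be missed too. The interval of Col23a1 under Cugbp1 siRNA was -0.14 to -0.04, yet it was not called (limma adjusted p = 0.322).

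Genes that act around the matrix were described from further lists of symbols. The counts of each list stand beside the shares of all genes given above, which at 5 h were 35.6% higher and 32.8% lower on the deposited scale and 2.61% and 60.1% on the ribosomal protein scale. Of 22 tested genes for folding and processing of collagen, 19 were higher and 1 lower at 5 h on the deposited scale, the latter Tram2, needed for type I collagen synthesis, by 0.65 (-0.65 ± 0.07); on the ribosomal protein scale 1 was higher and 1 lower. Under Mbnl1 siRNA 10 were higher and 3 lower: P3h2, a prolyl 3-hydroxylase, by 1.72 ± 0.06, 3.30-fold, and, on the lower side, Serpinh1, the collagen chaperone HSP47, by 0.99 (-0.99 ± 0.05) and Sec23a, part of the coat that exports procollagen from the endoplasmic reticulum, by 0.61 (-0.61). Under Cugbp1 siRNA 4 were higher and 1 lower.

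Of 27 other matrix glycoproteins and proteoglycans, 13 were higher and 4 lower at 5 h on the deposited scale, and 1 higher and 12 lower on the ribosomal protein scale. Those that fell most were Ccn1 (-2.87 ± 0.13) and Ccn2 (-1.46 ± 0.09), secreted matricellular proteins, and Has2 (-1.49 ± 0.07), which makes hyaluronan. Under Mbnl1 siRNA 8 were higher, with Has2 at 0.86, and 7 lower, with Ccn4 at -0.85 and Matn2 at -0.72. Under Cugbp1 siRNA 6 were higher and 5 lower, with Ccn2 at -0.56, and 1 and 7 on the ribosomal protein scale.

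Of 29 adaptors and kinases of focal adhesions, where integrins meet the cytoskeleton, 10 (34.5%) were higher and 10 (34.5%) lower at 5 h on the deposited scale, close to the shares of all genes, and 0 and 20 (69%) on the ribosomal protein scale, with Bcar1 at -1.44 ± 0.06 and Crkl at -1.005 ± 0.05, adaptors that bind each other. Under Mbnl1 siRNA 8 were higher and 11 lower, with Arhgef7 at -1.27 and Fermt2, kindlin 2, an integrin activator, at -0.69. Under Cugbp1 siRNA 0 were higher and 7 lower, with Tgfb1i1 at -0.33, and at an unadjusted p under 0.05 in limma these were 4 and 9.

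Of 16 ligands, receptors and responders of TGF-beta, the growth factor that drives matrix synthesis, 1 was higher and 12 lower at 5 h on the deposited scale, and 0 and 15 on the ribosomal protein scale, with Tgif1 at -1.25 and Smad3 at -1.08. Under Mbnl1 siRNA 5 were higher, with Tgfb2 at 0.57 and Tgfbr2 at 0.56, and 3 lower, with Tgfbr1 at -0.50. Under Cugbp1 siRNA limma called 0 of the 16 in either direction, and 1 higher and 2 lower at an unadjusted p under 0.05. Of 16 other matrix receptors, 8 were higher and 0 lower at 5 h on the deposited scale (limma, also at an unadjusted p under 0.05) and 0 and 7 on the ribosomal protein scale. Of the same 16, 4 were higher and 6 lower under Mbnl1 siRNA, with the syndecan Sdc3 at -1.87 ± 0.15, Sgce at -0.54 and Ddr2 at -0.48, and 1 was higher under Cugbp1 siRNA (Sdc2, 0.27).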

How the data were processed

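Total RNA of 9 C2C12 samples was measured on Affymetrix whole-transcript arrays. Per the submitters' processing notes, the authors made the values with RMA in Affymetrix Expression Console; versions: not given in the sources used here. Judged from their range, the deposited intensity values are linear; log2 was taken here. The 35556 probe sets carried 1 symbol (21789), several (1621) or none (12146) in GEO's platform annotation, which can be old. Genes were kept at a mean log2 of at least 7.385, the 50th percentile of named probe sets, using the probe set with the highest mean.

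limma 3.58.1 in R 4.3.3 (lmFit, eBayes) was fitted to all 9864 genes with siRNA and time as factors (4 residual degrees of freedom). Decay was tested by adding hours within each knockdown (2 residual degrees of freedom). Calls used p under 0.05 after Benjamini-Hochberg adjustment across all genes. The fits were tested on simulated data. Alternatives were a filter at the 25th percentile, no filter, arrays set to equal medians of ribosomal protein genes, the mean over probe sets, an intensity trend in eBayes, and leaving out each array. The number of arrays limits the precision. Members and lists were chosen with earlier results of these data known. Genes with full values are the 10 largest called rises and falls per comparison with 1 direction in all array pairs, the largest of each list, and a set of well-known members; values of other genes were chosen after they were seen.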

Additional observations from a re-analysis of the deposited data

Results flagged for a closer look

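Of 17 members called under both knockdowns, 8 differed from control siRNA in the same direction and 9 in opposite directions. The share of all genes with opposite calls was not counted. For these 9 members the direct test of Mbnl1 siRNA against Cugbp1 siRNA was called in limma. That call and its p follow from how the 9 were picked, since opposite differences from the same control arrays add up in it. It is therefore no separate evidence for the opposite directions. Mbnl1 siRNA minus Cugbp1 siRNA was 1.447 for Dcn, 0.846 for Itgb3, 0.718 for Lox, 0.644 for Adamts1, 0.349 for Itga5 and 0.271 for Fn1, which were lower under Cugbp1 siRNA and higher under Mbnl1 siRNA than under control siRNA. It was -0.605 for Lamc1, -0.523 for Col6a2 and -0.479 for Col6a1, which were higher under Cugbp1 siRNA and lower under Mbnl1 siRNA. The adjusted p of these differences lay between 1.54e-06 (Dcn) and 0.000259 (Fn1) in limma. Several of the calls against control rested on single arrays: of the 9 omissions of 1 array, 7 ended the Mbnl1 siRNA call for Adamts1 and 6 each those for Itga5 and Fn1, and 4 each ended the Cugbp1 siRNA calls for Fn1 and Col6a1.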

How the results depend on the processing

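With arrays set to equal ribosomal protein medians, higher members became 4 under Cugbp1 siRNA, 0 at 2.5 h, 1 at 5 h and 0 from 2.5 to 5 h, and lower members became 20 at 5 h, 13 from 2.5 to 5 h and 3 for decay under Mbnl1 siRNA. Of the 46 members called at 5 h, 30 turned sign on that scale and 1 of them, Col17a1, was called in the opposite direction; 7 kept their call and sign. Sparc turned to -0.008 at 2.5 h, and at 5 h Col1a1 turned to -0.094, Col1a2 to -0.22, Col4a1 to -0.038, Col5a1 to -0.103, Col5a2 to -0.093, Dcn to -0.096, Itga7 to -0.178, Itgav to -0.10, Itgb1 to -0.124, Lox to -0.123 and Sparc to -0.117. Without a filter 13 members were higher at 2.5 h and 1 from 2.5 to 5 h; with an intensity trend in eBayes 5 were higher and 5 lower from 2.5 to 5 h. The cause of these moves was not tested, other than that scaling shifts every gene of an array alike. Leaving out 1 array gave 3 to 7 higher and 11 to 16 lower members under Cugbp1 siRNA, 17 to 28 and 10 to 14 under Mbnl1 siRNA, 23 to 30 and 12 to 15 for Mbnl1 against Cugbp1 siRNA, 9 to 20 and 4 to 5 at 2.5 h, 29 to 37 and 4 to 7 at 5 h, 0 to 4 and 2 to 3 from 2.5 to 5 h, and 0 for decay in both. No paired analysis was possible because the replicate numbers stand for the times, which the fit already holds as a factor. Over all genes, the decay contrast for Mbnl1 siRNA called 0 higher and 2 lower as reported, 44 and 148 with the intensity trend and 28 and 626 with equal ribosomal protein medians.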
